A study of Mus musculus with 6 samples.

Results

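Hif1a, the gene of the oxygen-regulated subunit of hypoxia-inducible factor 1 (HIF-1), and 9 of its target genes that do not encode glycolytic enzymes (Egln1, Egln3, Vegfa, Bnip3, Ankrd37, Ddit4, Adm, P4ha1 and Kdm3a) were followed in bone marrow–derived macrophages (BMMs). The genes were taken from a list of symbols matched to Ensembl identifiers, and all 10 were found among the 23504 genes of the table. RNA was sequenced in 6 libraries after 3 days, 3 with DASA-58, a small molecule that activates pyruvate kinase M2 (PKM2), and 3 with DMSO, its solvent. The cells came from the marrow of young adult male C57BL/6 mice and were grown with M-CSF. Both groups were described as induced with RANKL, the cytokine that turns macrophages into osteoclasts, although the wording of the methods names RANKL only for the treated cells and writes the compound as DASA-48, and no concentration of DASA-58 was given for this experiment. Whether the 3 replicates of a group were separate cultures or animals was not stated, so p-values measure the spread between these libraries, which may be technical.

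HIF-1 is a pair of proteins, HIF-1α and ARNT. When oxygen is present, prolyl hydroxylases of the EGLN family mark HIF-1α for destruction through VHL, so its amount is set mainly at the protein level and not by its mRNA. When oxygen is scarce, or when macrophages are activated, HIF-1α accumulates and switches on genes for glycolysis, vessel growth, mitophagy and its own hydroxylases. PKM2 has been described as a coactivator of HIF-1 in the nucleus, and the activators of PKM2 favour the tetramer that stays in the cytoplasm.

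Of these genes only P4ha1, which encodes a catalytic subunit of the enzyme that hydroxylates prolines in collagen, rose with DASA-58, to 114% of its DMSO level. Hif1a and Bnip3 stood at 113% and 118% of DMSO, with every DASA-58 library above every DMSO library, but did not pass the test. Egln1, Vegfa, Kdm3a and Ddit4 overlapped between the groups, and Adm, Ankrd37 and Egln3 were too low to be tested. None of the 7 genes tested passed the test as lower, although Ddit4 stood at 87.2% of DMSO. For Adm, Ankrd37 and Egln3 a fall could not be judged. The values are FPKM, fragment counts scaled to gene length and library depth, and differences are given as log2 fold changes of log2(FPKM + 1), a scale that understates the change of low genes. They were tested with limma over 10965 genes whose mean reached 1 FPKM, and a gene was called at an adjusted p under 0.05. By this rule 1 of the 7 genes tested was higher, where 4.24% of all genes tested were higher, and 0 were lower, where 7.28% of all genes tested were lower. The count of 0 was the same at an unadjusted p under 0.05 in limma and with voom in limma, a test on recovered fragments. At an unadjusted p under 0.05, 3 of the 7 were higher. A single gene out of 7 is too few to be read against the background.

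**Figure D1:**
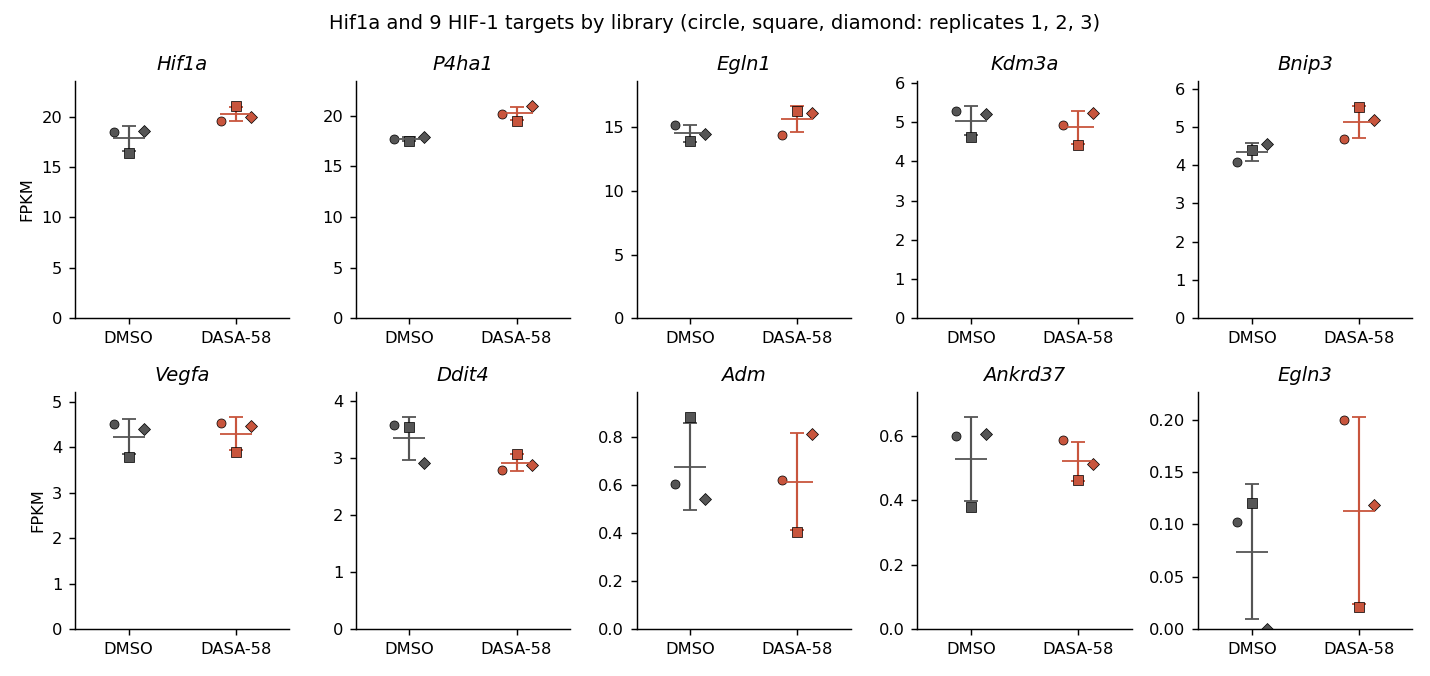
FPKM (y axis, from 0, with its own scale for each gene) of Hif1a and the 9 targets in the 3 DMSO (grey) and 3 DASA-58 (red) libraries, with the mean and SD as a bar and whiskers. The groups are apart for Hif1a, P4ha1 and Bnip3 and overlap for the other 7 genes, of which Adm, Ankrd37 and Egln3 lie under 1 FPKM in all 6 libraries.

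P4ha1 was at 17.7, 17.5 and 17.9 FPKM in DMSO replicates 1, 2 and 3 and at 20.2, 19.5 and 20.9 FPKM in DASA-58 replicates 1, 2 and 3. The DMSO libraries lay close together and all DASA-58 libraries stood above them. With n = 3 in each group, the mean and SD were 17.7 ± 0.202 FPKM for DMSO and 20.2 ± 0.663 FPKM for DASA-58. The log2 fold change was 0.18 (standard error 0.035, 95% interval 0.10 to 0.26), with a p of 0.017 in limma once adjusted by Benjamini-Hochberg over all genes tested. These values rest on 1335 to 1356 fragments per DMSO library and 1463 to 1629 per DASA-58 library. A change of this size is common here, since 15.3% of all genes tested had a larger absolute log2 fold change. The call was lost when DMSO replicate 1 (adjusted p = 0.057), DASA-58 replicate 1 (0.056) or DASA-58 replicate 3 (0.065) was left out, and without variance shrinkage (0.052), each in limma. The log2 fold change stayed between 0.16 and 0.21 when single libraries were left out.

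Hif1a was at 18.5, 16.4 and 18.6 FPKM with DMSO and at 19.6, 21.0 and 20.0 FPKM with DASA-58. The lowest value belonged to DMSO replicate 2, and the groups did not overlap. The log2 fold change was 0.17 (standard error 0.054, 95% interval 0.048 to 0.30, adjusted p = 0.079, limma). Without DMSO replicate 2 the log2 fold change was 0.12, the lowest of the values with 1 library left out. Hif1a had 1824 to 2251 fragments per library, and its call depended on the model, since it passed the threshold with centring on the median (adjusted p = 0.049, limma), with a filter of 5 FPKM (0.04998) and with voom on recovered fragments (0.0046).

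Bnip3 encodes a protein of the outer mitochondrial membrane that recruits the autophagy machinery. Its values were 4.09, 4.40 and 4.56 FPKM with DMSO and 4.69, 5.51 and 5.17 FPKM with DASA-58. The groups were apart, but DASA-58 replicate 1 stood just above DMSO replicate 3. From 170 to 227 fragments in a library, its log2 fold change came to 0.19 (95% interval 0.045 to 0.34, adjusted p = 0.095, limma), the largest of the 7 genes. In the annotation 504 exon bases of Bnip3 (22.3%) are shared with the antisense gene Gm45507, not analysed here, and the use of strand in the counting was not given, so reads of both could not be told apart. Hif1a, P4ha1 and Bnip3 are 3 genes with groups that did not overlap and higher values with DASA-58, where 11.8% of all genes tested were of this kind. In the other direction 0 of the 7 were apart, where 21.6% of all genes were (33.4% in either direction). For each of the 3 a two-sided exact permutation test over the 6 libraries gave p = 0.10, the lowest value possible with 3 against 3.

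Among the hydroxylases, Egln1 encodes PHD2, the main enzyme that marks HIF-1α in normal oxygen. It was at 15.2, 13.9 and 14.5 FPKM with DMSO and at 14.4, 16.3 and 16.1 FPKM with DASA-58. DASA-58 replicates 2 and 3 were the highest libraries, while DASA-58 replicate 1 lay within the DMSO range (log2 fold change 0.10, 95% interval -0.029 to 0.22, adjusted p = 0.29, limma). Egln3 encodes PHD3, whose transcript is often among the most inducible in hypoxia. It was near the limit of detection, with 5, 6 and 0 fragments in the DMSO libraries and 10, 1 and 6 in the DASA-58 libraries. For a library at 0 the upper limit is 3 fragments, equal to 0.0594 to 0.0620 FPKM of Egln3, for counting error only. Summed over each group, 17 fragments with DASA-58 against 11 with DMSO gave 153% of DMSO, with an exact 95% counting interval of 67.6% to 361%.

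Vegfa and Adm encode secreted factors, the main growth factor of blood vessels and the vasodilator peptide adrenomedullin. Vegfa was at 4.51, 3.80 and 4.41 FPKM with DMSO and at 4.55, 3.89 and 4.48 FPKM with DASA-58. In both groups replicate 2 was the lowest library, and the other 4 libraries lay close together. The log2 fold change was 0.02 (95% interval -0.16 to 0.19, adjusted p = 0.91, limma), from 303 to 367 fragments per library, so that a change within this interval was not detectable. Adm had 18, 27 and 16 fragments with DMSO and 19, 12 and 25 with DASA-58, or 0.678 ± 0.182 and 0.615 ± 0.203 FPKM (SD, n = 3 each). Its coefficient of variation, 26.8% with DMSO and 33.1% with DASA-58, was near the 22.2% and 23.1% that counting alone gives.

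Ddit4 encodes REDD1, an inhibitor of mTORC1 that is also induced by other stresses. It was at 3.57, 3.54 and 2.91 FPKM with DMSO and at 2.78, 3.07 and 2.88 FPKM with DASA-58. Ddit4 had the lowest log2 fold change among the 7 (-0.15, 95% interval -0.32 to 0.028, adjusted p = 0.25, limma). DMSO replicate 3 lay within the DASA-58 range, and without it the value was -0.22 (adjusted p = 0.083, limma). Kdm3a encodes a histone demethylase that removes methyl groups from lysine 9 of histone H3. It was at 5.28, 4.62 and 5.21 FPKM with DMSO and at 4.93, 4.42 and 5.24 FPKM with DASA-58. As for Vegfa, replicate 2 was the lowest library in each group, and the log2 fold change was -0.04 (95% interval -0.20 to 0.12, adjusted p = 0.74, limma). Ankrd37, a small ankyrin repeat gene, had 11 to 17 fragments in the libraries of either group and 45 in the sum of each. Its level with DASA-58 was 99.0% of DMSO, with an exact 95% counting interval of 64.0% to 153%, so no difference was detectable at this depth. On the other strand, 57 of its exon bases (3.7%) are shared with Ufsp2, which reached 15.3 FPKM, and 349 (22.7%) with Lrp2bp, which stayed at or below 0.038 FPKM. Without the use of strand, reads of Ankrd37 and Ufsp2 in the shared bases cannot be told apart.

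**Figure D2:**
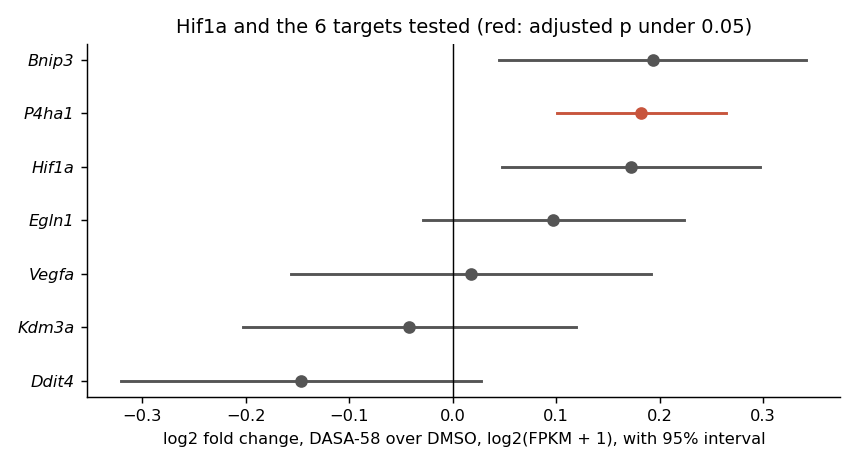
Log2 fold change of log2(FPKM + 1), DASA-58 over DMSO (x axis), of Hif1a and the 6 targets tested, as points with the 95% interval of the limma fit. P4ha1 (red) passed an adjusted p under 0.05, the intervals of Bnip3 and Hif1a also lie above 0, and those of the other 4 genes hold 0.

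FPKM are divided by gene length, so the levels can be set in a rough order between genes. The lengths that match these values count all annotated exons of a gene, expressed or not, so the order is approximate. With DMSO the order was Hif1a (17.9 ± 1.25), P4ha1 (17.7 ± 0.202), Egln1 (14.5 ± 0.646), Kdm3a (5.04 ± 0.364), Bnip3 (4.35 ± 0.238), Vegfa (4.24 ± 0.386), Ddit4 (3.34 ± 0.372), Adm (0.678 ± 0.182), Ankrd37 (0.529 ± 0.130) and Egln3 (0.0740 ± 0.0646 FPKM, SD, n = 3 each). Of the neighbours in this order, Hif1a and P4ha1, Bnip3 and Vegfa, and Adm and Ankrd37 overlapped in their libraries. With DASA-58, Hif1a and P4ha1, and Adm and Ankrd37, overlapped again, Kdm3a and Bnip3 also did, and Bnip3 and Vegfa were apart. Among all 23504 genes, the mean DMSO level of Hif1a was at percentile 86.5 and that of Egln3 at percentile 29.7. The 3 genes under 1 FPKM, Egln3, Ankrd37 and Adm, are genes whose transcripts are usually strongly induced by hypoxia. In a fit without the filter they had log2 fold changes of 0.05, -0.0044 and -0.06, with adjusted p of 0.78, 0.9999 and 0.86 (limma).

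By the rule for likeness, the genes whose values followed those of P4ha1 most closely over the 6 libraries were Map4 (Pearson r = 0.9965), Lss (0.9953), Pgap1 (0.9953), Aacs (0.9935) and Evl (0.9928). These r are a description over 6 libraries that share 2 groups and their depth. Lss encodes an enzyme of cholesterol synthesis and Aacs one that makes acetoacetyl-CoA for lipid synthesis, but a role shared by these genes was not tested. Map4 and Lss were not called (adjusted p = 0.082 and 0.060, limma). Pgap1, Aacs and Evl were higher with DASA-58 (adjusted p = 0.016, 0.026 and 0.0091, limma).

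HIF-1 binds DNA at a short core that reads ACGTG or GCGTG. The promoter windows of RefSeq on GRCm38.p6, from 250 bases before to 50 after each start site, were searched for both cores on both strands, and all 10 genes had a window. The 3 genes whose groups did not overlap, Ddit4 as the gene of opposite sign and Egln3 as one near the limit of detection are shown, 5′ to 3′ on the strand of the gene, with the cores in capitals (CACGT and CACGC are the same cores on the other strand). They lie at chr10:59323046-59323345 on the plus strand (P4ha1), chr7:138909457-138909756 on the minus strand (Bnip3), chr12:73907617-73907916 on the plus strand (Hif1a), chr10:59951721-59952020 on the minus strand (Ddit4) and chr12:54203825-54204124 on the minus strand (Egln3).
P4ha1: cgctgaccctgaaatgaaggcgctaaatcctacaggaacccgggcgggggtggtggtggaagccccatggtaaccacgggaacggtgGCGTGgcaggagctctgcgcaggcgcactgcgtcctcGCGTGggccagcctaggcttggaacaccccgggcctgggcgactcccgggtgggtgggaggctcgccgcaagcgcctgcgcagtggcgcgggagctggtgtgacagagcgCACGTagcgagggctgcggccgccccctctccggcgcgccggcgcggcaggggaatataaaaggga
Bnip3: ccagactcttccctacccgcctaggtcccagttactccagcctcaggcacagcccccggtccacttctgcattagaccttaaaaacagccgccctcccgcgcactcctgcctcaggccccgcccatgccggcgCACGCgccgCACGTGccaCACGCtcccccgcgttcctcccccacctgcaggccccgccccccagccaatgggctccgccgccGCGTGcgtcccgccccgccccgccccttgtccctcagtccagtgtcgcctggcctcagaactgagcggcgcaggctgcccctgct
Hif1a: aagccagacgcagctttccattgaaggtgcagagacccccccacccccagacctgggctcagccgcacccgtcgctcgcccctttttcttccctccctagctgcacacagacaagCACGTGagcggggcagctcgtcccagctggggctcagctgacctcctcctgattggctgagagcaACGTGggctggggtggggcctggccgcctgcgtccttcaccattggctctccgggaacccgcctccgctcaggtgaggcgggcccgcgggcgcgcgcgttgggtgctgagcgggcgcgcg
Ddit4: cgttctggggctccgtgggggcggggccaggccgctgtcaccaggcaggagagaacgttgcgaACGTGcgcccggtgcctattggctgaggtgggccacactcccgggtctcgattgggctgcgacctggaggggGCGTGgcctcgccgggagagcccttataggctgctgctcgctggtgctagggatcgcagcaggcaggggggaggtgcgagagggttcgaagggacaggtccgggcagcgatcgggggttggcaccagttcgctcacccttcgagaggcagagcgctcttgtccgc
Egln3: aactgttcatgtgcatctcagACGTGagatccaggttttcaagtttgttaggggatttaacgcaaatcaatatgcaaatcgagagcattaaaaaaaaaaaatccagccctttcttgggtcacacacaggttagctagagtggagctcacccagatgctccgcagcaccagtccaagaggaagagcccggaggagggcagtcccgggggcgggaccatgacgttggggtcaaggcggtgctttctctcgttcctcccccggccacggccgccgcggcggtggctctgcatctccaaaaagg
The P4ha1 window held 3 cores, the nearest starting 16 bases before the start site. Bnip3 held 5, of which a pair overlap in CACGTG, a sequence that reads the same on both strands and is counted on each. Hif1a held 3, again with CACGTG counted on both strands, Ddit4 held 2 and Egln3 held 1. Of the 13 windows of the 10 genes, 10 held a core (76.9%), against 43.8% of all 32851 windows. The windows without one were the first of Vegfa, at chr17:46032328-46032627 on the minus strand, and 2 of the 3 of Kdm3a. The cores of Vegfa lay only in a second window downstream of it, at chr17:46025114-46025413. Every one of the 10 genes had a core in at least 1 window, whether its transcript was at 17.7 FPKM or near 0. Counted by gene, 46.7% of all 27025 genes with a window had a core, and 69.1% of the 8070 genes tested that had one, so a core is common among expressed genes. These 8070 are 73.6% of the genes tested, and the others had no matched window, so 69.1% may not hold for all genes tested. The 10 genes were not tested against this share, and a match is a run of letters and not a measured binding site.

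The genes that surround these were described with 9 lists, which hold 133 genes of the table, 105 of them tested. Of the 105, 8 were lower and 7 higher at an adjusted p under 0.05 (limma), where 7.28% of all genes tested were lower and 4.24% higher (11.5% in either direction), so their share of calls was near the background. The other 28 were under the filter. The median log2 fold change of all genes tested was -0.03.

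The HIF machinery, the partner subunits, hydroxylases, the VHL complex and the coactivators, had 11 of 15 genes tested, with 1 lower, 0 higher and a median log2 fold change of -0.04. The count of 0 higher was the same at an unadjusted p under 0.05 and with voom in limma. Egln2, which encodes PHD1, fell from 27.1 ± 0.672 to 24.3 ± 0.499 FPKM (SD, n = 3 each), a log2 fold change of -0.15 (adjusted p = 0.029, limma). This call was lost in 5 of the 6 fits that left out a library, the exception being DMSO replicate 3, with an adjusted p of up to 0.10 (limma). It was also lost with centring on the median (adjusted p = 0.057), quantile normalization (0.068), no filter (0.052), no variance trend (0.062) and no shrinkage (0.066), each in limma. The ratio of Egln1 to Egln2 within a library was 0.554, 0.504 and 0.551 with DMSO and 0.593, 0.656 and 0.677 with DASA-58, so the DASA-58 libraries were all higher (two-sided exact permutation p = 0.10, the minimum for this design). Arnt, the partner of HIF-1α, was at 96.7% of DMSO and Vhl at 100.5%, with adjusted p of 0.61 and 0.96 (limma). Epas1, the gene of HIF-2α, was just under the filter, with 0.852, 0.829 and 0.776 FPKM in DMSO and 1.16, 1.28 and 1.09 FPKM in DASA-58. It was chosen after its values were seen, all DASA-58 libraries were above the DMSO libraries, and without the filter its log2 fold change was 0.26 (adjusted p = 0.12, limma).

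The further HIF-1 targets outside glycolysis had 31 of 32 genes in the table and 23 tested, with 2 lower, 2 higher and a median log2 fold change of 0.03. For this list and the glycolytic one below, the shares over all genes tested were 7.28% lower and 4.24% higher. Bhlhe40, a transcriptional repressor that is also induced by other signals, fell from 14.7, 13.3 and 14.4 FPKM to 7.71, 7.49 and 7.64 FPKM. Its groups were far apart (log2 fold change -0.81, standard error 0.045, adjusted p = 7.0e-05, limma). Cxcr4, a chemokine receptor, fell to 89.2% of DMSO (adjusted p = 0.012, limma). Hmox1, the heme oxygenase that NRF2 also controls, rose to 111% (adjusted p = 0.012, limma). The Hmox1 call was lost without DASA-58 replicate 2 (adjusted p = 0.051) or replicate 3 (0.057), without a filter (0.0504) and without a variance trend (0.059), each in limma. The other 19 were not called, among them Car9, the tumour hypoxia marker carbonic anhydrase IX (105% of DMSO, adjusted p = 0.69), and Bnip3l, the relative of Bnip3 (102%, adjusted p = 0.61, limma). Of the 19 glycolytic targets, 3 were higher (Aldoc at 137%, Pfkfb4 at 117.5% and Aldoa at 109% of DMSO, adjusted p from 0.0048 to 0.024, limma) and 0 were lower. At an unadjusted p under 0.05 in limma, 7 were higher and 2 lower, and with voom 3 were higher and 0 lower. The calls of Pfkfb4 and Aldoa were lost in fits that left out single libraries, with adjusted p of up to 0.082 and 0.083, and without a filter (0.063 and 0.076) or shrinkage (0.074 and 0.052), and that of Aldoa also without a variance trend (0.083), each in limma. Pkm, which encodes the enzyme that DASA-58 acts on, stood at 99.9% of DMSO (adjusted p = 0.99), and Gapdh at 104.5% (adjusted p = 0.61, limma).

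**Figure D3:**
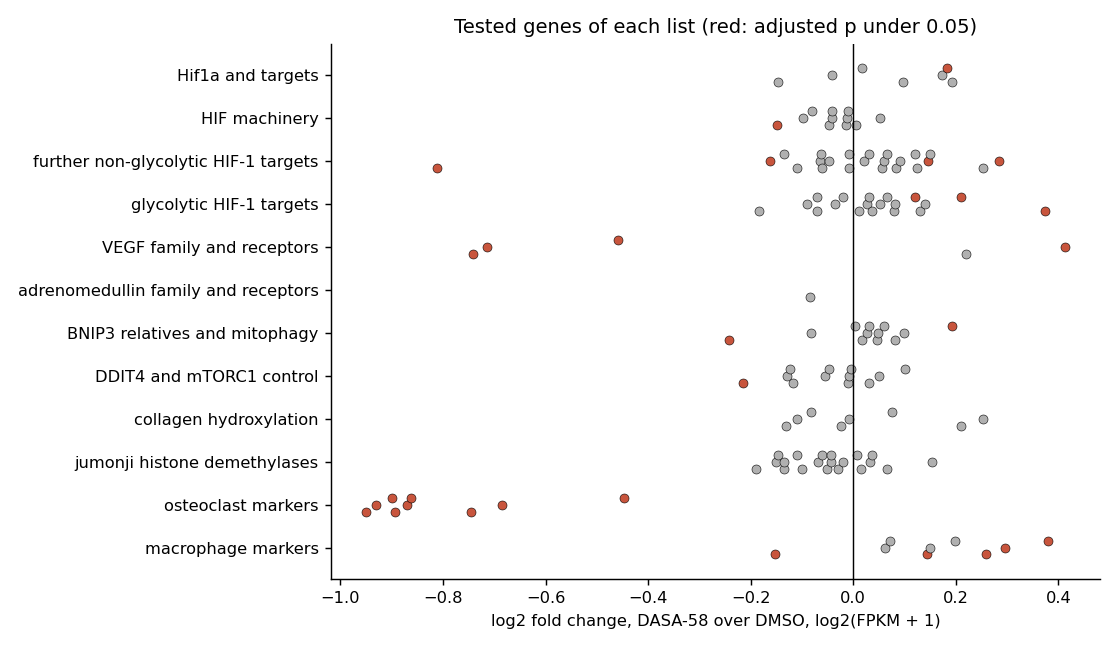
Log2 fold change of log2(FPKM + 1), DASA-58 over DMSO (x axis), of each gene tested in each list, with a point per gene, red at an adjusted p under 0.05, and heights within a list spread only to separate points. The HIF lists lie between -0.18 and 0.37 apart from Bhlhe40 at -0.81, the VEGF family spreads from -0.74 to 0.41, and the osteoclast markers all lie below -0.44.

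Most of the VEGF family tested changed, while Vegfa itself was not called. Of 9 relatives and receptors 5 were tested, and 3 were lower and 1 higher, where 7.28% of all genes tested were lower and 4.24% higher. Vegfc, a lymphatic growth factor, was at 9.5, 9.53 and 8.07 FPKM with DMSO and at 4.49, 5.57 and 4.95 FPKM with DASA-58. It fell with no overlap (log2 fold change -0.74, standard error 0.083, adjusted p = 0.0017, limma). Pgf, the placental growth factor, fell from 7.19, 6.34 and 6.75 FPKM to 3.82, 3.98 and 3.40 FPKM (log2 fold change -0.71, adjusted p = 7.4e-04, limma).

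The coreceptors of the family went in opposite directions. Nrp2 fell from 82.5 ± 3.86 to 59.8 ± 1.40 FPKM and Nrp1 rose from 6.93 ± 0.518 to 9.55 ± 0.192 FPKM (SD, n = 3 each, adjusted p = 5.5e-04 and 0.0034, limma). Vegfb was at 117% of DMSO and overlapped (adjusted p = 0.24, limma). Kdr, a receptor under the filter, had 159 to 180 fragments per DMSO library and 82 to 126 per DASA-58 library. Within a library, the ratio of Vegfa to Pgf was 0.627 ± 0.0267 with DMSO and 1.16 ± 0.172 with DASA-58, and that of Vegfa to Vegfc 0.473 ± 0.0737 and 0.872 ± 0.160 (SD, n = 3 each). Neither ratio overlapped between the groups (two-sided exact permutation p = 0.10, the minimum for this design).

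**Figure D4:**
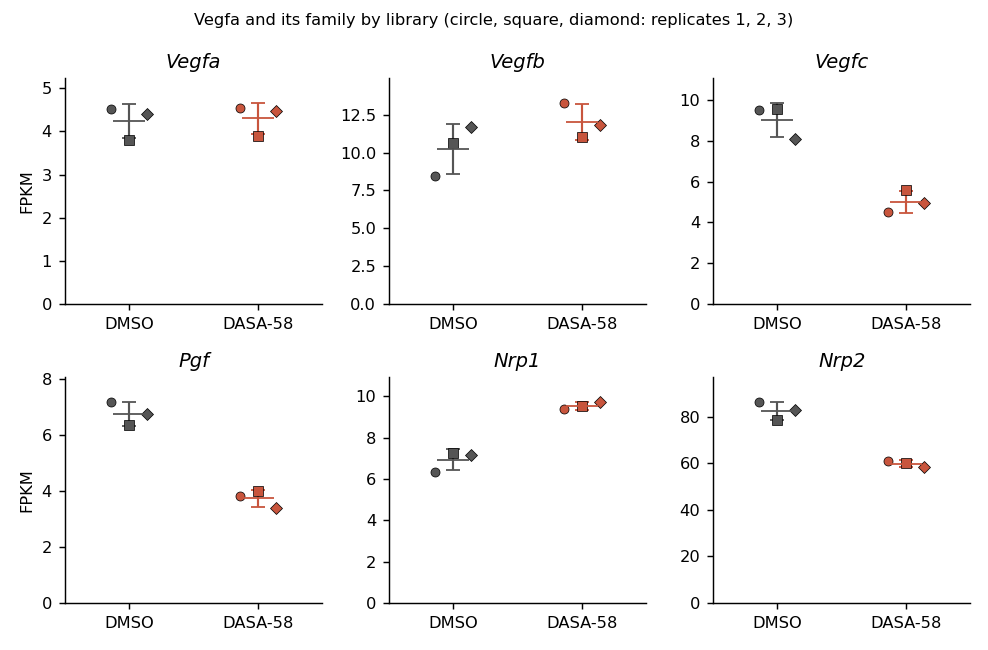
FPKM (y axis, from 0, with its own scale for each gene) of Vegfa, 3 relatives and 2 coreceptors in the DMSO (grey) and DASA-58 (red) libraries, with mean and SD. Vegfa stays between 3.80 and 4.55 FPKM in all 6 libraries, while Vegfc, Pgf and Nrp2 are lower and Nrp1 higher in every DASA-58 library.

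The partners of the other genes that were tested mostly stayed near their DMSO level. For collagen hydroxylation, where P4ha1 acts, 8 of 11 genes were tested and 0 were called in either direction (limma), with 2 higher and 0 lower at an unadjusted p under 0.05 and 1 higher with voom. P4ha2, the other widely expressed catalytic subunit, was at 1.06 ± 0.127 FPKM with DMSO and 1.46 ± 0.182 with DASA-58 (SD, n = 3 each), 137% with no overlap but an adjusted p of 0.11 (limma). P4hb, which forms the enzyme together with either of them, was at 98.4% (adjusted p = 0.59, limma). The ratio of P4ha1 to P4hb was 0.0697 to 0.0730 with DMSO and 0.0803 to 0.0853 with DASA-58, without overlap.

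Of the relatives of Bnip3 and the mitophagy genes 12 of 14 were tested, with 1 lower and 1 higher. Phb2, a prohibitin of the inner mitochondrial membrane, fell to 84.2% of DMSO, and Bcl2l1, which encodes the survival factor BCL-XL and binds BNIP3, rose to 116% (adjusted p = 0.0071 and 0.019, limma). The Phb2 call was lost without variance shrinkage (adjusted p = 0.056, limma). Leaving out DMSO replicate 1 or 2, or DASA-58 replicate 1 or 3, lost the call of Bcl2l1, with an adjusted p of up to 0.075 (limma). Around Ddit4, 12 of 14 genes of mTORC1 control were tested, with 1 lower and 0 higher. At an unadjusted p under 0.05 in limma, 3 were lower and 1 higher, and with voom 2 were lower and 0 higher. The 1 gene lower in the limma fit of FPKM was Txnip, which limits glucose uptake, at 86.1% of DMSO (adjusted p = 0.0026, limma). For Kdm3a, 20 of 22 other jumonji genes were tested and 0 were called in limma, with 3 lower and 0 higher at an unadjusted p under 0.05, and 1 lower and 1 higher with voom. Of the adrenomedullin family only Calcrl, the receptor, was tested, at 93.8% of DMSO (adjusted p = 0.37, limma). Under the filter were 28 genes of the 9 lists, and 5 of them did not overlap between the groups. Among all genes tested, which lie above the filter, 33.4% did not overlap, a share that cannot be set against genes this low. Kdr was lower, and Epas1, Bcl2, Plod2 and Sesn3 were higher. Bcl2 stood at 178.5% of DMSO, Plod2 at 141% and Sesn3 at 133%. Without the filter the adjusted p of Bcl2, Plod2 and Sesn3 were 0.069, 0.15 and 0.33 (limma). Kdr had a log2 fold change of -0.32 in that fit and was not called (adjusted p = 0.10, limma).

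The libraries held 18191560 to 18968556 fragments. Macrophage markers were high in both groups and osteoclast markers were present in both, with Ctsk at 203 to 214 FPKM in DMSO, so the labelled macrophages also held osteoclast transcripts. All 9 osteoclast markers tested, of 10 listed, were lower with DASA-58 (Ctsk, Acp5, Mmp9 and Nfatc1 among them), and their summed level went from 778 to 833 FPKM with DMSO to 449 to 467 FPKM with DASA-58. Of 9 macrophage markers 4 were higher (Cd68 and Adgre1 among them) and 1, Cd14, was lower. Among all genes tested 4.24% were higher and 7.28% lower. The macrophage sums were 16480 to 17320 FPKM with DMSO and 17430 to 19740 FPKM with DASA-58. Most of them came from Lyz2 (mean 15160 FPKM with DMSO), which overlapped between the groups and was not called (adjusted p = 0.11, limma). Of 7 neutrophil markers tested 4 were lower, with sums of 174 to 177 and 136.5 to 143 FPKM, most of it from S100a9, Ngp and S100a8. The lymphoid, stromal, dendritic, erythroid and mast cell lists had sums of at most 36.5 FPKM and 0 calls, with 1 stromal gene lower at an unadjusted p under 0.05 and with voom. The part of these cell types in the changes above was not tested, and fewer cells of a type and less RNA per cell cannot be told apart in bulk RNA. The scaling between libraries bears on the background, with 798 genes lower and 465 higher as deposited, 504 and 597 after centring on the median, 588 and 600 after quantile normalization, and 958 and 386 with equal library totals. With voom on recovered fragments 1148 were lower and 651 higher.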

How the data were processed

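RNA of BMMs was sequenced after 3 days in 3 libraries with DMSO and 3 with DASA-58. The authors deposited FPKM for 23504 genes by Ensembl identifier, with 0 columns left unmapped. HISAT2 2.1.0, HTSeq 0.6.0 and the build mm8 are named in the submitters' processing notes, without roles. The annotation, the use of strand and any scaling between libraries were not given in the sources used here. Symbols were matched for 23455 identifiers with GENCODE mouse release M21, and older symbols and promoter windows came from RefSeq (GRCm38.p6). No gene coordinates are given for the FPKM values, since the build behind them is uncertain. Of 2 rows named Aldoa the higher was used.

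With the exon lengths of GENCODE M21, FPKM of single-exon genes gave the depth of each library. By these lengths 21375 genes (90.9%) were whole numbers of fragments, within 0.02 fragments plus rounding, in every library. GENCODE M21 is an annotation of GRCm38, so this match leaves the named build mm8 in doubt. Fragments state the precision, and the fit does not use them. The precision of a low gene is set by these counts.

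Groups, assigned from the treatment labels, were set against each other in R 4.3.3 by limma 3.58.1 (lmFit, eBayes with a trend) on log2(FPKM + 1), over 10965 genes whose mean reached 1 FPKM, with Benjamini-Hochberg adjustment over all of them and a threshold of 0.05. No replicate block was used. Exact permutation tests and exact counting intervals at 95% used SciPy 1.17.1. Alternatives were other pseudocounts, filters, scalings, variance models, a replicate block and each library left out, and voom, added after seeing the data. The fit was tested on simulated data. The genes and lists were chosen with earlier results of these data known. Named genes are all 10 genes, Pkm, Gapdh, up to 3 called genes with the smallest p per list, up to 4 markers per marker list, and the 5 genes most like the gene with the smallest p. Genes named beyond this rule, such as Epas1, P4ha2, Kdr, Bcl2, Plod2, Sesn3, Car9, Vegfb, Arnt, Vhl, P4hb, Calcrl, Ngp and Bnip3l, were chosen after their values were seen. A gene of the lists that this rule would name is not reported here. Other steps used pandas 2.3.3 and numpy 2.4.6 under Python 3.11.15, and plots matplotlib 3.10.9.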

Additional observations from a re-analysis of the deposited data

How the results depend on the processing

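When single libraries were left out, the number of HIF genes called higher lay between 0 and 1, and the log2 fold change between 0.16 and 0.21 for P4ha1, -0.044 and 0.076 for Vegfa and -0.093 and 0.013 for Kdm3a. The genes lower among all tested numbered 387 to 603, those higher 272 to 375, and the calls in the 9 lists 9 to 16. Without DMSO replicate 1 or DASA-58 replicate 1, 2 or 3 the genes lower were 387, 413, 467 and 400 and those higher 282, 272, 296 and 276, and the list count of 9 came without DASA-58 replicate 3. Vegfa turned negative without DMSO replicate 2 (-0.044), DASA-58 replicate 1 (-0.016) or DASA-58 replicate 3 (-0.0067), and Kdm3a positive without DASA-58 replicate 2 (0.013). A mean of at least 5 FPKM, centring on the median and voom each gave 2 HIF genes higher, the second being Hif1a (log2 fold change 0.17, 0.20 and 0.18). No variance shrinkage gave 0, with P4ha1 at 0.18. The genes lower and higher were 372 and 257 without a filter, where 23504 genes were tested, and 314 and 227 without shrinkage. The genes lower were 504 with centring and 515 without a trend. Bnip3, Egln1 and Ddit4 kept their sign and stayed uncalled in every alternative that tested them. The cause of these shifts was not tested.

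With the replicate number as a block, 579 genes were lower and 378 higher, P4ha1 kept its call (adjusted p = 0.035, limma), and the calls in the lists were 15 as before. Same-numbered libraries correlated at -0.015, 0.016 and -0.016 in their deviations from the group means. The highest correlation of each DMSO library was with another number. These values show no pairing by number over all genes tested, but with 3 libraries a group they cannot decide whether the libraries were paired. Low depth limits Adm, Ankrd37 and Egln3, and 3 libraries a group limit the rest.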
